A study of Mus musculus with 6 samples.

Results

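The 9 genes described here encode matrix proteins of cartilage other than its collagens: aggrecan (Acan), the matrilins (Matn1, Matn2, Matn3 and Matn4), cartilage oligomeric matrix protein (Comp), the Gla-rich protein Ucma, the small secreted protein Cytl1 and the leucine-rich proteoglycan epiphycan (Epyc). They were taken by gene symbol from the 24421 rows of the authors' deposited 6-library table, and all 9 had reads. RNA-seq was made from the anterior palatal mesenchyme of C57BL/6 mouse embryos at E12.5, after Dispase II had been used to strip off the epithelium. Embryos were Wnt1Cre;Meis2f/f (3 libraries), in which Wnt1Cre, a recombinase driven in premigratory neural crest, acts on a floxed Meis2 allele, or WT (3 libraries). No group carries Wnt1Cre alone, so a difference due to the transgene and one due to the loss of Meis2 cannot be told apart. Meis2 encodes a homeodomain transcription factor, and the design asks how the palatal transcriptome differs without it.

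Cartilage matrix is a network of collagen fibrils filled with aggrecan, whose chondroitin sulphate chains hold water and give the tissue its stiffness. Matrilins and Comp are oligomeric adaptors that link collagen fibrils, aggrecan and other matrix proteins to one another. At this stage the anterior palatal shelf is a bud of neural crest mesenchyme rather than mature cartilage, and several of these proteins, Matn2 and Matn4 among them, are also made by loose connective tissue.

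The deposited tables give means and fold changes but no column per library. A base mean is the sum of whole reads, each weighted by the size factor of its library, so the reads themselves could be solved for, and a single whole-number solution was found for each of the 19405 genes searched, with all 9 cartilage matrix genes among them. The recovered reads summed to between 4592125 and 8048872 per mutant library and between 4443084 and 7094221 per WT library, over the genes searched. The submitters' text describes a table as WT against mutant for a replicate of the same number, yet the single-read genes show 6 libraries behind one table and 4 of them behind the other, and n is given here as the tables show it. Libraries carry no replicate number in these tables and are numbered here by falling size factor within a genotype. Mutant and WT were told apart by the sign of the authors' fold change, read as mutant over WT because Meis2 is lower under that reading, so every direction below rests on it. Meis2 had 1250, 1378 and 1218 normalised reads (reads divided by the size factor) in mutant libraries, against 1526, 1549 and 1695 in WT libraries. The authors' deposited table lists a log2 fold change of -0.28 for it (adjusted p 0.0743, DESeq2), and the mutant mean was 80.6% of the WT mean; the sources used here do not say which exons are floxed, and reads of the deleted part could not be looked at alone. The palate mesenchyme marker genes Prrx1, Osr2, Twist1, Msx1 and Shox2 all had reads, and Prrx1, Twist1 and Shox2, 3 of the 5, are called lower by the authors' deposited table.

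In the 6-library table that the authors deposited (the authors' deposited table, unless 4 libraries are named), 1 of the 9 genes fell and 0 rose (DESeq2, adjusted p under 0.05). Of all 14942 genes with an adjusted p there, 2.9% were called, 1.16% lower and 1.75% higher. The authors' deposited 4-library table, built on 4 of the same libraries, also has 1 lower and 0 higher among the 9. Only 3 of the 9 have an adjusted p with 4 libraries, and the other 6 are NA. Of all genes with an adjusted p there, 2.3% were called (0.99% lower and 1.31% higher). Unadjusted p-values were under 0.05 for 3 of the 9 in the authors' deposited table, Matn4, Cytl1 and Epyc, against 7.68% of all genes. With 4 libraries those of Cytl1 and Epyc were 0.186 and 0.122 (DESeq2 Wald test). A limma voom fit to the recovered reads, added after seeing the data, called 1 of the 9 against 2.1% of all genes, and 6 of the 9 had an unadjusted p under 0.05 there, against 13.1%. These 6 were Matn1, Matn3, Matn4 and Cytl1, lower in the mutant, and Matn2 and Epyc, higher. Of them Matn1, Matn3, Cytl1 and Epyc had base means under 10. The 9 genes were chosen with earlier results of these data known, so these counts only describe. An adjusted p stands for 4 of the 9 in the authors' deposited table, and the other 5 are NA, all with a base mean under 10. The gene that fell was Matn4. The median log2 fold change of the 9 was -0.023 by the authors' deposited table, with 6 below 0 and 3 above. That median includes the 5 genes with no adjusted p. The 4 with an adjusted p had a median of 0.23, with 1 below 0, against -0.012 over all genes with an adjusted p. By recovered reads, the median log2 ratio of the genotype means was -0.33 for members with reads in both genotypes. Over genes with at least 10 reads it was -0.0082. In the recovered reads the libraries of the 2 genotypes did not overlap for 4 genes, lower in the mutant for Matn4 and Cytl1 and higher for Matn2 and Epyc. Among 15686 genes with at least 10 reads, 17.4% did not overlap, 8.26% with the mutant below and 9.12% with the mutant above WT. Among genes that, like Cytl1 and Epyc, had a base mean under 10, 14.5% did not overlap.

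**Figure D1:**
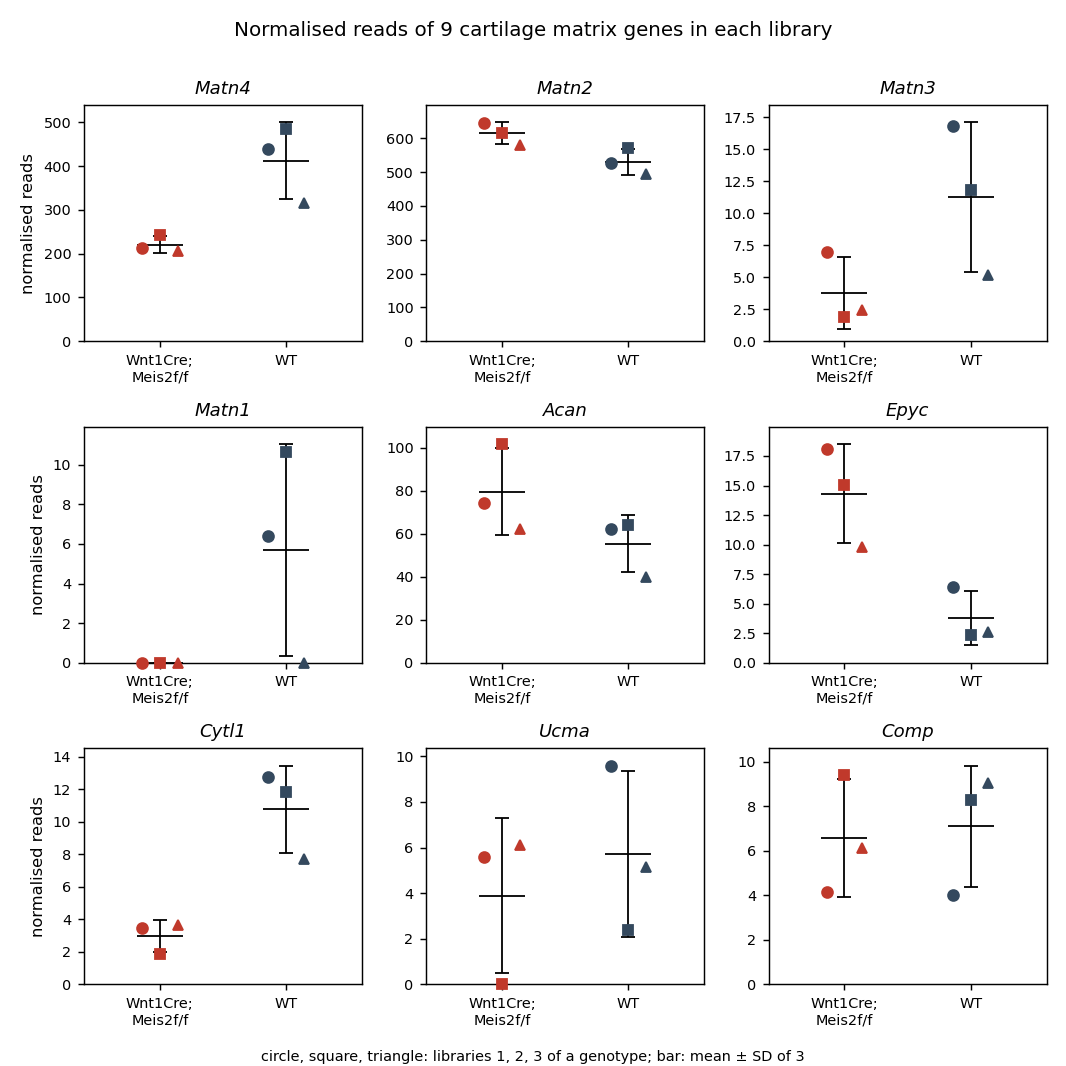
Normalised reads (y axis, starting at 0) of each of the 9 genes in 3 Wnt1Cre;Meis2f/f libraries (red, left) and 3 WT libraries (dark blue, right); circle, square and triangle are libraries 1, 2 and 3 of a genotype, and the black bar is the mean ± SD. Matn4 and Cytl1 lie lower and Matn2 and Epyc higher in all mutant libraries than in any WT library, while Matn1 has reads in 2 WT libraries only.

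Matn4, a matrilin found in cartilage and in many other connective tissues (chromosome 2, 164389393 to 164405160, minus strand, GRCm38), had 213, 243 and 207 normalised reads in mutant libraries, against 438, 484 and 315 in WT libraries. The mutant libraries lay close together and the lowest WT library was above all of them. The means were 221 ± 19.3 in the mutant and 412 ± 87.2 in WT (SD, n = 3 each), a ratio of 0.536. The authors' deposited table gives -0.69 as the log2 fold change (SE 0.128, adjusted p 1.14e-05, DESeq2). With 4 of these libraries, the authors' deposited table has -0.56 (SE 0.135, adjusted p 0.00248, DESeq2). Both are closer to 0 than the log2 ratio of the means, -0.90; limma's voom fit on the recovered reads gave -0.89 (SE 0.153, adjusted p 0.00837). With mutant library 1 left out, the limma adjusted p was 0.0517 at a log2 fold change of -0.86, and without WT library 1 it was 0.0751 at -0.83, so that these fits no longer made the call. In bulk RNA, fewer cells of a type and less RNA per cell cannot be told apart, here and below. The gene overlaps exons of Rbpjl on the other strand. The authors' deposited table gives Rbpjl a base mean of 2.65, against 316 for Matn4.

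Matn2, the matrilin of loose connective tissue, skin and nerve sheaths (chromosome 15, 34306677 to 34436273), had 646, 616 and 581 normalised reads in mutant libraries, against 526, 571 and 493 in WT libraries. The genotypes did not overlap, but the lowest mutant and the highest WT library were close. The means were 614 ± 32.4 in the mutant and 530 ± 39.2 in WT (SD, n = 3 each), a ratio of 1.16. Its log2 fold change of 0.19 by the authors' deposited table (SE 0.102, adjusted p 0.546, DESeq2) is not called. Its exons overlap those of 9430069I07Rik on the other strand, to which the authors' deposited table gives a base mean of 1.01.

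These 2 matrilins, which share the von Willebrand factor A and EGF-like domains of their family, therefore stood in different proportion in the 2 genotypes. Within a library the ratio of Matn4 to Matn2 reads was 0.330, 0.394 and 0.356 in mutant libraries, against 0.833, 0.847 and 0.639 in WT libraries. The mean ratio was 0.360 ± 0.0323 in the mutant and 0.773 ± 0.116 in WT (SD, n = 3 each). No overlap of the genotypes was possible here, because every mutant library was lower for Matn4 and higher for Matn2 than any WT library. The ratio was computed after the values of both genes were seen and is given as a description, with no test. Because both genes are read from the same library, this ratio does not depend on the size factors.

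Matn3, a matrilin restricted to cartilage and linked to multiple epiphyseal dysplasia in humans (chromosome 12, 8947929 to 8972028), was near the limit of detection. It had 10, 2 and 2 reads in mutant libraries, against 21, 10 and 4 reads in WT libraries. Mutant library 1 lay above WT library 3 after normalisation (6.96 against 5.16 normalised reads), so the genotypes overlapped. The means were 3.76 ± 2.78 in the mutant and 11.3 ± 5.83 in WT (SD, n = 3 each). The log2 ratio of these means was -1.58, and -2.38 without mutant library 1. The authors' deposited table has a log2 fold change of -0.20 with an unadjusted p of 0.0518 (DESeq2 Wald test) and no adjusted p; the limma adjusted p was 0.295.

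Matn1, the matrilin of differentiated chondrocytes (chromosome 4, 130944385 to 130955475), had 0 reads in each of the 3 mutant libraries, against 8, 9 and 0 reads in WT libraries. WT library 3 was thus at 0 like the mutant libraries. The WT mean was 5.68 ± 5.36 normalised reads (SD, n = 3), while 0 reads in the mutant allow a mean of up to 0.904 (3 reads over the 3 libraries). By that floor the mutant mean of Matn1 was at least 6.28-fold lower than the WT mean, a bound that covers counting error in the mutant only and takes the WT mean as exact. The bound was 3.54-fold without WT library 2, 3.56-fold without mutant library 1 and 9.42-fold without WT library 3. For the same 17 reads, the authors' deposited table gives a log2 fold change of -0.023 (SE 0.0267) with an unadjusted p of 0.384 (DESeq2 Wald test). Deposited fold changes behave as moderated estimates, drawn towards 0 where reads are few. This value and its SE therefore do not measure a change near 0.

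A start of Matn4 is shown with those of Cytl1 and Epyc, since these are the 3 genes whose genotypes did not overlap and for which RefSeq promoter sequence (GRCm38.p6) was at hand. Each line gives the 250 bases before the annotated start, 5′ to 3′ on the gene's own strand. Capitals mark matches, on either strand, to TGACAG, the core bound by Meis factors, or to ACAATG or ACAAAG, cores bound by Sox factors such as Sox9.
Matn4 (chr2:164405161-164405410, minus strand): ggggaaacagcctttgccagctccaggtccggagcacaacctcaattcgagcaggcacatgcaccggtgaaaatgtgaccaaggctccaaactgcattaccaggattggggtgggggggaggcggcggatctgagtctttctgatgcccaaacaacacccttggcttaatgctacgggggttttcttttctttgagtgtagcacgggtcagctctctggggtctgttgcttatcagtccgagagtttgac
Cytl1 (chr5:37735269-37735518, plus strand): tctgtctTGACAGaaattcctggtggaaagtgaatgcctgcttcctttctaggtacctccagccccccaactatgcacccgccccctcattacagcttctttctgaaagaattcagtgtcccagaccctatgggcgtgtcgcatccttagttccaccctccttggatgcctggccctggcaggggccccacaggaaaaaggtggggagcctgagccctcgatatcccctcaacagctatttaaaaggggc
Epyc (chr10:97643818-97644067, plus strand): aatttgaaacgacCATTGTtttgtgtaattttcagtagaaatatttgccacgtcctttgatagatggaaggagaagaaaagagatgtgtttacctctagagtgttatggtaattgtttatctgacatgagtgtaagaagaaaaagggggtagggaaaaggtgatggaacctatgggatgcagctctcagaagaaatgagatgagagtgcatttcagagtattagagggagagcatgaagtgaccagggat
The Cytl1 window holds TGACAG at positions -243 to -238 from the start. The Epyc window shown holds ACAATG on the opposite strand at positions -237 to -232. RefSeq has another Epyc start further downstream, whose window (chr10:97646853-97647102) holds ACAATG on the opposite strand at positions -209 to -204 and -202 to -197 and ACAAAG at positions -147 to -142. Matn4 also has another window (chr2:164404819-164405068), and neither Matn4 window holds any of the 3 motifs. The windows of Acan, Matn1, Matn3 and Ucma, not shown, hold none of them either. In all, 9 windows of 7 of the genes were searched. Both Matn4 windows overlap exons of Rbpjl, and the downstream Epyc window overlaps exons of Epyc itself. Over all 32851 windows of this length in the table, 15.9% held TGACAG, 10.7% ACAATG and 16.5% ACAAAG on either strand. A match is a stretch of letters and was not tested as a binding site.

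Acan, the large chondroitin sulphate proteoglycan that defines cartilage matrix (chromosome 7, 79053483 to 79115099), had 74.4, 102 and 62.4 normalised reads in mutant libraries, against 62.3, 63.9 and 40.0 in WT libraries. Mutant library 3 lay among the WT libraries, so the genotypes overlapped. The means were 79.5 ± 20.1 in the mutant and 55.4 ± 13.3 in WT (SD, n = 3 each), a ratio of 1.43. The authors' deposited table lists 0.28 as the log2 fold change (SE 0.150, adjusted p 0.532, DESeq2). The value is 0.14 (adjusted p 0.968, DESeq2) by the authors' deposited 4-library table, which leaves out mutant library 2 and WT library 2, the highest of their genotypes for Acan.

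Epyc, a small leucine-rich proteoglycan of growth plate cartilage (chromosome 10, 97644068 to 97682454), was the weakest of the 9 per length in WT and stood higher in the mutant. It had 26, 16 and 8 reads in mutant libraries, against 8, 2 and 2 reads in WT libraries. After division by the size factors these were 18.1, 15.1 and 9.78 in mutant libraries, against 6.39, 2.37 and 2.58 in WT libraries, with no overlap. The means were 14.3 ± 4.20 in the mutant and 3.78 ± 2.26 in WT (SD, n = 3 each), a ratio of 3.79. The log2 ratio of the means was 1.92, and 2.53 without WT library 1. The authors' deposited table has a log2 fold change of 0.29 (SE 0.114, unadjusted p 0.00981, adjusted p 0.197, DESeq2), and limma's was 1.82 (SE 0.501, adjusted p 0.103), so neither fit called it. With 4 libraries the deposited value is 0.12 (unadjusted p 0.122, DESeq2 Wald test), with no adjusted p. Gm10754, whose exons overlap Epyc on the other strand, has a base mean of 0.674 by the authors' deposited table.

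Cytl1, a small secreted protein made by chondrocyte precursors (chromosome 5, 37735519 to 37739820), stood lower in the mutant. It had 5, 2 and 3 reads in mutant libraries, against 16, 10 and 6 reads in WT libraries. The normalised values were 3.48, 1.88 and 3.67 in mutant libraries, against 12.8, 11.8 and 7.75 in WT libraries, with no overlap. The means were 3.01 ± 0.981 in the mutant and 10.8 ± 2.68 in WT (SD, n = 3 each), a ratio of 0.279. Per the authors' deposited table its log2 fold change was -0.25 (SE 0.106, unadjusted p 0.0193, DESeq2), with no adjusted p, and limma gave -1.76 (SE 0.488, adjusted p 0.107), short of the threshold. With 4 libraries the deposited value is -0.094 (unadjusted p 0.186, DESeq2 Wald test), again with no adjusted p.

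Ucma, a vitamin K-dependent protein of resting chondrocytes (chromosome 2, 4976122 to 4985748), had 8, 0 and 5 reads in mutant libraries, against 12, 2 and 4 reads in WT libraries. The genotypes overlapped, and mutant library 2 and WT library 2 were the lowest of their genotypes. Per the authors' deposited table its log2 fold change was -0.050, with an unadjusted p of 0.548 (DESeq2 Wald test). Comp, a thrombospondin-family protein of cartilage and tendon (chromosome 8, 70373558 to 70382066), had 6, 10 and 5 reads in mutant libraries, against 5, 7 and 7 reads in WT libraries. These ranges nearly coincide, and the authors' deposited table has a log2 fold change of -0.013 with an unadjusted p of 0.901 (DESeq2 Wald test). For Comp the SE of the limma log2 fold change was 0.504. At like SEs limma did not call Epyc at 1.82 (SE 0.501) or Cytl1 at -1.76 (SE 0.488). A change of that size could therefore also go uncalled for Comp.

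**Figure D2:**
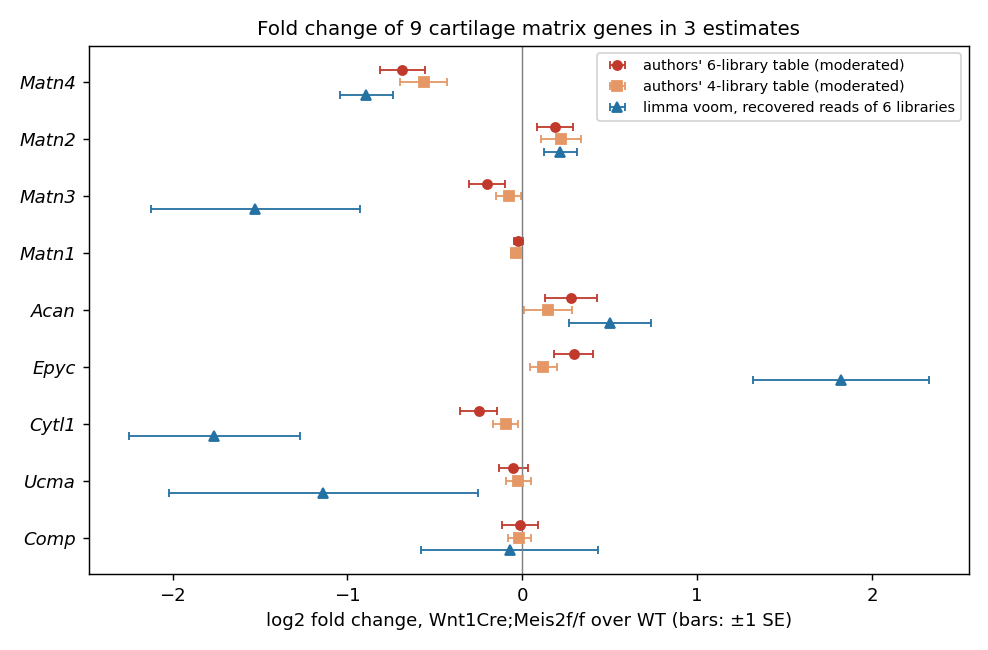
Log2 fold change (x axis, Wnt1Cre;Meis2f/f over WT, bars ±1 SE) of the 9 genes in the authors' deposited 6-library table (circles), their 4-library table (squares) and a limma voom fit to the recovered reads (triangles; left out for Matn1, which has 0 mutant reads). The deposited values of weakly expressed genes lie nearer to 0 than limma's, as for Epyc (0.29 against 1.82) and Cytl1 (-0.25 against -1.76), while those of Matn4 (-0.69 against -0.89) and Matn2 (0.19 against 0.22) lie closer together.

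Levels of different genes were set side by side as normalised reads per kb of annotated exon (GENCODE M21), averaged over 3 libraries (SD). Matn2 and Matn4 were far above the rest, at 98.1 ± 5.17 and 42.7 ± 3.73 reads per kb in the mutant and 84.6 ± 6.26 and 79.7 ± 16.9 reads per kb in WT. In WT these 2 levels did not differ beyond their spread, and in the mutant every Matn2 level was above every Matn4 level. Acan followed in the mutant at 10.6 ± 2.69 reads per kb, against 7.42 ± 1.79 in WT. Epyc stood at 5.59 ± 1.64 reads per kb in the mutant and 1.48 ± 0.884 in WT, and Cytl1 at 2.85 ± 0.929 in the mutant and 10.2 ± 2.53 in WT. Ucma had 4.40 ± 3.83 reads per kb in the mutant and 6.45 ± 4.12 in WT, and Comp 2.21 ± 0.892 in the mutant and 2.39 ± 0.916 in WT. Matn3 had 1.25 ± 0.923 reads per kb in the mutant and 3.73 ± 1.93 in WT, and Matn1 0 in the mutant and 2.84 ± 2.68 in WT. The order in WT was thus Matn2, Matn4, Cytl1, Acan, Ucma, Matn3, Matn1, Comp and Epyc, and neighbours from Cytl1 onward did not differ beyond their spread. In the mutant the order was Matn2, Matn4, Acan, Epyc, Ucma, Cytl1, Comp, Matn3 and Matn1, where every Acan level was above every Epyc level, every Matn3 level was above 0 reads of Matn1, and neighbours from Epyc to Matn3 overlapped. Matn2, Matn4 and Acan together held between 96.1% and 97.1% of the 9 genes' normalised reads in mutant libraries and between 94.8% and 96.6% in WT libraries.

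**Figure D3:**
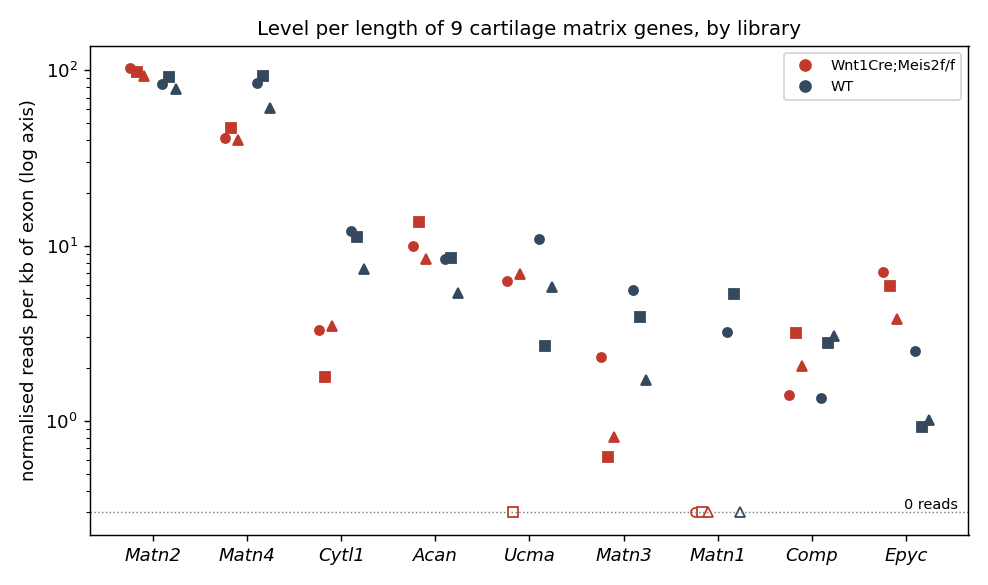
Normalised reads per kb of exon (log y axis) of the 9 genes, ordered by their WT mean, in each Wnt1Cre;Meis2f/f (red, left) and WT (dark blue, right) library; open symbols on the dotted line are libraries with 0 reads. Matn2 and Matn4 lie between 39.9 and 103 reads per kb in every library, and the other 7 genes at or under 13.6.

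Other genes of the cartilage programme were read from lists chosen with earlier results of these data known, so their counts describe and do not support. The authors' deposited table has an adjusted p for 8 cartilage collagens, of which 1 fell and 0 rose (unadjusted p under 0.05 for 2 of them), with a median log2 fold change of -0.062. With 4 libraries the authors' deposited table calls 1 lower and 1 higher. The one that fell was Col9a1, a chain of type IX collagen, which matrilins bind at the fibril surface. It had 763, 789 and 641 normalised reads in mutant libraries, against 1459, 1711 and 1134 in WT libraries, and the authors' deposited table gives a log2 fold change of -0.78 (adjusted p 8.79e-09, DESeq2). Mutant library 2 and WT library 2 were the highest of their genotypes for Col9a1, as they were for Matn4. The collagen called higher with 4 libraries was Col9a2, another chain of type IX collagen, at 0.38 (adjusted p 0.0270, DESeq2), against 0.26 (adjusted p 0.320, DESeq2) with 6 libraries, per the authors' deposited table. Its normalised reads were 1219, 1303 and 1371 in mutant libraries, against 1059, 1238 and 826 in WT libraries, and the genotypes overlapped. Col2a1, the main collagen of cartilage, is listed at a log2 fold change of -0.10 (adjusted p 0.838, DESeq2) by the authors' deposited table. Of 7 chondrocyte transcription factors 1 rose and 0 fell (unadjusted p under 0.05 for 3 of them). It was Trps1, a transcriptional repressor of growth plate chondrocytes, at 0.51 (adjusted p 1.62e-08, DESeq2) by the authors' deposited table. Sox9, which drives Acan and the matrilins in cartilage, had 419, 418 and 444 normalised reads in mutant libraries, against 623, 465 and 624 in WT libraries. The authors' deposited table gives it a log2 fold change of -0.35 (adjusted p 0.0738, DESeq2), and -0.42 (adjusted p 0.0125, DESeq2) with 4 libraries.

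Close relatives of the 9 genes are the thrombospondins, the lecticans with their link proteins and the small leucine-rich proteoglycans. Of 4 thrombospondins other than Comp, 1 fell and 1 rose (unadjusted p under 0.05 for 3 of them, DESeq2). Thbs1, an anti-angiogenic matrix protein, fell by 0.42 (adjusted p 0.00168) and Thbs3 rose by 0.35 (adjusted p 0.0379) on the log2 scale (DESeq2) by the authors' deposited table. Of 4 lecticans and link proteins, which include Hapln1, the protein that locks aggrecan onto hyaluronan, 0 were called by DESeq2 (unadjusted p under 0.05 for 1 of them). The authors' deposited table gives Vcan, the aggrecan relative of loose mesenchyme, a log2 fold change of 0.28 (adjusted p 0.120, DESeq2). With 4 libraries the authors' deposited table calls Vcan, at 0.27 (adjusted p 0.00799, DESeq2). Hapln1 had 425, 419 and 424 normalised reads in mutant libraries, against 454, 417 and 217 in WT libraries. Of 14 small leucine-rich proteoglycans other than Epyc, 1 fell and 0 rose (unadjusted p under 0.05 for 2 of them), and it was Aspn, which binds collagen and restrains TGF-beta. Aspn had 616, 669 and 604 normalised reads in mutant libraries, against 1525, 1416 and 915 in WT libraries, and the authors' deposited table gives -0.80 (adjusted p 3.19e-08, DESeq2). With 4 libraries the authors' deposited table has -0.39 (adjusted p 0.152, DESeq2), which is not called.

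Proteases that cut aggrecan or matrilins rose in part: of 6 with an adjusted p, 2 rose and 0 fell (unadjusted p under 0.05 for 3 of them). Adamts5, the main aggrecan-cleaving enzyme of mouse cartilage, had 460, 502 and 511 normalised reads in mutant libraries, against 289, 300 and 285 in WT libraries, with no overlap. By the authors' deposited table its log2 fold change was 0.64 (adjusted p 6.64e-07, DESeq2), and that of Adamts15, a related protease that cleaves versican and aggrecan, was 0.45 (adjusted p 0.00190, DESeq2). Of 24 genes that make or sulphate glycosaminoglycan chains, 2 fell and 0 rose (unadjusted p under 0.05 for 5 of them). They were Has2, the hyaluronan synthase, at -0.59 and the chondroitin synthase Chsy3 at -0.60 (adjusted p 1.76e-06 and 0.000942, DESeq2), per the authors' deposited table. Among 17 other secreted or membrane proteins of cartilage 2 rose, Cilp (log2 fold change 1.36) and Edil3 (1.13), and 1 fell, Fgfr3 (-0.46), per the authors' deposited table. With 4 libraries the authors' deposited table does not call Chsy3 (-0.42, adjusted p 0.106, DESeq2) or Fgfr3 (-0.27, adjusted p 0.551, DESeq2).

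**Figure D4:**
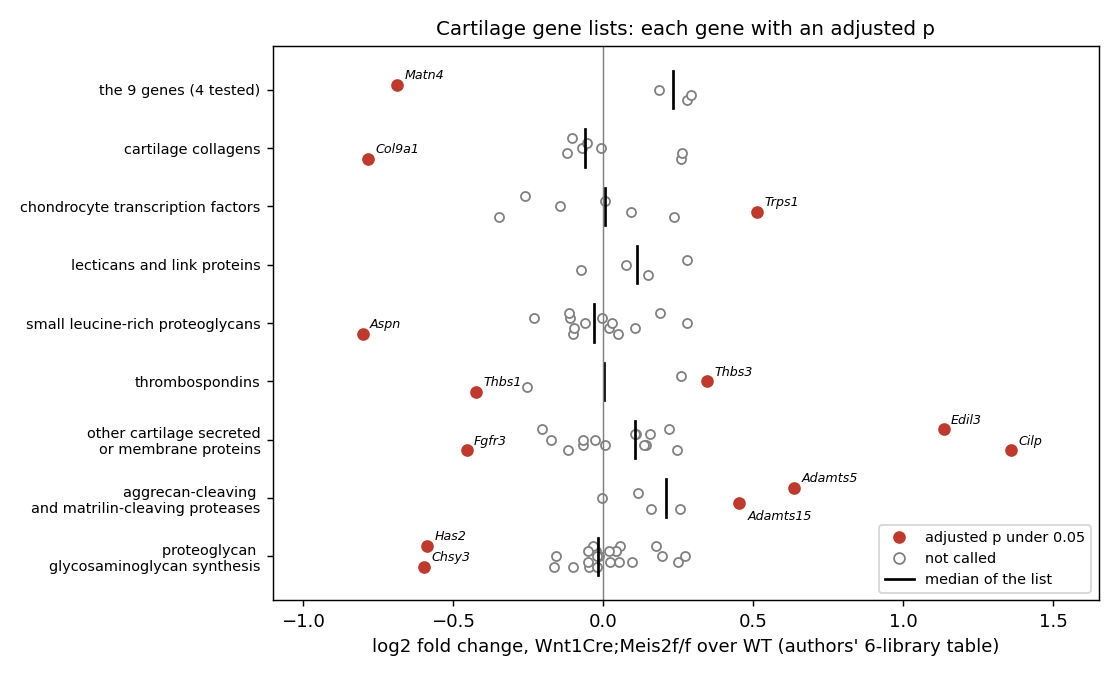
Log2 fold change (x axis, Wnt1Cre;Meis2f/f over WT, authors' deposited 6-library table) of each gene with an adjusted p (4 of the 9 cartilage matrix genes, and 8 related lists); filled points passed an adjusted p under 0.05, and black lines are medians of the genes drawn. Matn4 (-0.69) and Col9a1 (-0.78) lie far to the left of the uncalled genes of their lists, and the 2 rising proteases lie at 0.45 and 0.64.

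Markers of some other tissues differed between the same libraries, and their part in the values above was not tested. Among 3 endothelium markers 0 were called (unadjusted p under 0.05 for 0 of them). Among 2 Schwann cell markers with an adjusted p 0 were called (unadjusted p under 0.05 for 1 of them). Calls are those of the authors' deposited table. Its unadjusted p (DESeq2 Wald test) was under 0.05 for 6 of 8 skeletal muscle, 3 of 4 neuron and 5 of 5 osteoblast markers. The same held for 3 of 3 macrophage markers and 1 of 3 smooth muscle and pericyte markers. Summed normalised reads of 8 skeletal muscle markers, 4 of which rose (Myog, Myod1, Actc1 and Tnnt1), ran from 1847 to 5771 in mutant libraries and from 776 to 1186 in WT libraries. Much of this was Myh3, which was not called, with 967, 1424 and 3555 in mutant libraries, against 326, 664 and 559 in WT libraries. For 6 neuron markers, with 3 of 4 tested lower (Tubb3, Elavl4 and Dcx), the sums ran from 284 to 335 in mutant libraries and from 458 to 795 in WT libraries. Those of 5 osteoblast markers, of which 1 fell (Runx2), ran from 812 to 1235 in mutant libraries and from 1630 to 1686 in WT libraries. Most of each osteoblast sum was Runx2, from 648 to 1000 in mutant libraries and from 1312 to 1428 in WT libraries. All 5 osteoblast markers had a log2 fold change below 0. For 3 macrophage markers, which all rose (Csf1r, Adgre1 and Mrc1), the sums ran from 714 to 824 in mutant libraries and from 412 to 519 in WT libraries. For 3 smooth muscle and pericyte markers, with 1 higher (Acta2), the sums ran from 574 to 700 in mutant libraries and from 451 to 483 in WT libraries. Acta2 alone had 436, 415 and 499 normalised reads in mutant libraries, against 254, 253 and 235 in WT libraries. The other 2 were not called and went in different directions, Myh11 at a log2 fold change of 0.26 and Rgs5 at -0.18. Rgs5 had 183, 98.8 and 144 normalised reads in mutant libraries, against 196, 148 and 173 in WT libraries. Sums of 4 epithelium markers ran from 715 to 949 in mutant libraries and from 613 to 991 in WT libraries, so epithelial transcripts were still present, and DESeq2 called 0 of the 4 (unadjusted p under 0.05 for 0 of them). Of these calls, those of Myod1, Actc1, Tubb3, Elavl4, Adgre1 and Runx2 are not made with 4 libraries. Tendon is another tissue that makes Comp, and of 5 tendon markers 1 fell and 0 rose (unadjusted p under 0.05 for 1 of them). It was Mkx, a homeobox transcription factor of tendon, with 586, 581 and 659 normalised reads in mutant libraries, against 942, 814 and 785 in WT libraries. The authors' deposited table gives Mkx a log2 fold change of -0.42 (adjusted p 0.00361, DESeq2), and -0.38 (adjusted p 0.0304, DESeq2) with 4 libraries. The tendon genes Scx and Tnmd have log2 fold changes of 0.033 and -0.042 (adjusted p 0.969 and 0.959, DESeq2) by the authors' deposited table. Summed reads of the 4 tendon markers with recovered reads ran from 1261 to 2012 in mutant libraries and from 1454 to 2485 in WT libraries. A large part of these sums was Egr1, which was not called. It had 979, 520 and 1125 normalised reads in mutant libraries, against 1097, 464 and 1486 in WT libraries. Every gene of these marker lists had reads in at least 1 of the 6 libraries.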

How the data were processed

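RNA was reverse transcribed and amplified before TruSeq RNA v2 library preparation, per the labels' protocols, and the submitters' processing notes name HISAT2, featureCounts, DESeq2 and the builds GRCm38 and mm10. The sources used here do not say whether strand was used in counting, so reads of antisense genes cannot be told apart. The deposited tables, which describe the authors' comparison, hold a base mean (a signal, the mean of counts over size factors), a log2 fold change with its SE on the log2 scale, a Wald score, and p-values with adjusted p-values of a DESeq2 Wald test. Where reads are few, these log2 fold changes lie nearer to 0 than the log2 ratios of recovered reads. For Epyc the values are 0.29 and 1.92, so the deposited ones are read as moderated. The adjusted p of the 6-library table, called under 0.05, was the main test, and the 4-library table was an alternative. Another, shorter table was not used here.

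Whole reads were recovered from the base means with Python 3.11.15 and numba 0.67.0. Genes with a single read show the weight of each library, 6 in the first table and 4 in the second. For each gene with a base mean of at most 2000 in both tables, whole numbers were sought that give both base means within 1.1 times their rounding. A single solution was found for 19405 of 19405 genes, 92.5% of those with reads. Size factors computed anew from these reads differed from those of the tables by at most 0.727%. The search was tested on simulated reads. The 4-library table holds libraries 1 and 3 of each genotype in the numbering used here. Recovered reads were fitted with limma 3.58.1 (voom) in R 4.3.3 over 15686 genes with at least 10 reads. This fit was added after the data were examined.

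The members and gene lists were chosen with earlier results of these data known. All 9 members and Meis2 are named; genes of other lists are named where called or among the first 3 of their list. Msx1, a marker of the tissue, and Col9a2, chosen after its values were seen, fall outside this rule. So do Myh3, Myh11 and Egr1 where not among the first 3, named for their part in a sum. Replicates are those the labels call biological. The floor for Matn1 covers counting error only, while ± values are SDs over the 3 libraries of a genotype.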

Additional observations from a re-analysis of the deposited data

How the results depend on the processing

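Matn4 was the single gene of the 9 called in the authors' deposited 6-library and 4-library tables, with Benjamini-Hochberg adjustment over every gene with a p or over those with base means from 10 up, at thresholds of 0.1 and 0.01, and in limma fits to 6 and to 4 libraries. Leaving out 1 library at a time in limma gave between 0 and 2 called genes of the 9. The limma log2 fold change of Matn4 ran from -1.05 to -0.78 over these 6 fits, with adjusted p from 0.00168 to 0.0751. Matn1 was called without WT library 3, the WT library with 0 reads (adjusted p 0.0160), and its limma log2 fold change ran from -4.18 to -2.44 over the 6 fits, values that depend on the constant voom adds to a count of 0. Comp changed direction without mutant library 1, WT library 2 or WT library 3, with a range from -0.52 to 0.29, and Ucma without mutant library 2, with a range from -1.90 to 0.070; none of these values was called. Acan (0.32 to 0.62), Matn2 (0.17 to 0.27), Epyc (1.59 to 2.28), Cytl1 (-1.93 to -1.51) and Matn3 (-2.12 to -1.11) kept their direction in each of these fits. With adjustment over every gene, the deposited p of Epyc and Cytl1 gave adjusted values of 0.275 and 0.417. The causes were not tested. No paired analysis was possible because the tables carry no replicate numbers. Depth limits the 6 genes with a base mean under 10, which had between 17 and 62 reads over all 6 libraries.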
